A study of Mus musculus with 12 samples.

Results

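The marrow cultures described here came from STAT3C mice given short chain fatty acids (SCFAs) in their drinking water and from untreated STAT3C mice, 3 RNA-seq libraries of each, together 6 of the 12 libraries of a mouse study on SCFAs and osteoclast-driven bone loss in arthritis. STAT3C is a constitutively active form of the transcription factor STAT3. In these animals it stands behind a floxed stop cassette, is carried on both alleles, and is switched on by a CD4-Cre transgene. The homozygous SCFA libraries and the homozygous untreated libraries share this genotype, written STAT3Cstopfl/fl CD4Cre for 5 of the 6 libraries and R26STAT3Cstopfl/fl CD4Cre for homozygous untreated library 1. The other 6 libraries, 3 control SCFA and 3 control untreated, carry only the word control as their genotype and are used here as the setting against which the homozygous response was read. Marrow was taken at 8 weeks of age, kept in alpha-MEM medium for about 24 h, and the non-adherent cells were lysed for poly(A) RNA.

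Several features of the design limit what these groups can stand for. CD4-Cre is active mainly in T cells, so whether the stop cassette was removed in the other marrow cells sequenced is not given, and a gene count does not separate STAT3C transcripts from those of the endogenous Stat3 gene. The 3 homozygous SCFA libraries and the 3 control SCFA libraries bear the label date 3_30_2023, and all untreated libraries bear 3_1_2023, so treatment and label date cannot be told apart. Whether each library stands for its own mouse is not given in the labels, so the spread between libraries of a group may be technical. The p-values set the difference of group means only against that spread, estimated over all 12 libraries. In bulk RNA, fewer cells of a type and less RNA per cell cannot be told apart.

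SCFAs, mainly acetate, propionate and butyrate, are made by gut bacteria from dietary fibre. They act through G protein-coupled receptors such as those encoded by Ffar2, Ffar3 and Hcar2, and butyrate and propionate also inhibit histone deacetylases. Osteoclasts, the cells that resorb bone, form by fusion of myeloid precursors of the marrow, which respond to the growth factor receptor Csf1r and to RANK, encoded by Tnfrsf11a. STAT3 is activated by the interleukin 6 family of cytokines, and its target Socs3 encodes a feedback inhibitor.

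Levels are given as CPM, counts scaled to a common library size with TMM factors. Fold changes are log2, homozygous SCFA minus homozygous untreated, from edgeR's quasi-likelihood test on the counts of all 12 libraries. A gene is called higher or lower where its Benjamini-Hochberg adjusted p over all 15674 genes tested was under 0.05. The homozygous libraries held 17808825 to 20512888 counts, and 3 counts in 1 of them correspond to 0.150 to 0.171 CPM. In a principal component analysis of the 6 libraries, the first component carried 37.5% of the variance and separated the SCFA libraries from the untreated ones.

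In homozygous mice 621 genes were higher with SCFA, 3.96% of those tested, and 880 were lower, 5.61%. The change was at least 2-fold for 188 of the higher genes and for 453 of the lower ones. Gene sets in which most called members moved one way included interferon-stimulated, B-cell precursor and late erythroid genes, which were lower. They also included megakaryocyte, immediate early, macrophage complement and MHC class II genes, which were higher. These were not the only such sets. The counts moved with single libraries. Without homozygous SCFA library 2 they were 265 higher and 497 lower, without SCFA library 3 265 and 478, without untreated library 1 346 and 537, without untreated library 2 276 and 521, without untreated library 3 478 and 574, and without control untreated library 1 964 and 1020. In all 12 fits that left out 1 library, 582 of the 1501 called genes kept their call and direction, 206 higher and 376 lower. The median log2 fold change over all genes tested was -0.00, and it stands as the background for the list medians below. The 3 SCFA and the 3 untreated libraries did not overlap for 13.9% of the genes tested with SCFA higher and for 16.2% with SCFA lower. Genes named as the largest rises and falls were limited to those without overlap, so its absence in them is a description. List members were mostly named for the smallest p of their list or after their values were seen. Absence of overlap in them is a description too.

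Base composition moved with the groups. Genes called higher had a median transcript GC content of 54.1%, genes called lower 47.0% and genes not called 48.5%, and across genes the log2 fold change rose with GC content (Spearman rho 0.31 over 15385 genes, which are not independent). With an offset for GC content per library, an alternative chosen after seeing the data, 1020 genes were higher and 904 lower, against 621 and 880 without it, and 1271 of the 1501 calls (84.7%) kept their direction and their call. In control mice the relation had the opposite sign (rho -0.62). Differences between the genotypes are therefore given with the offset as well.

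**Figure D1:**
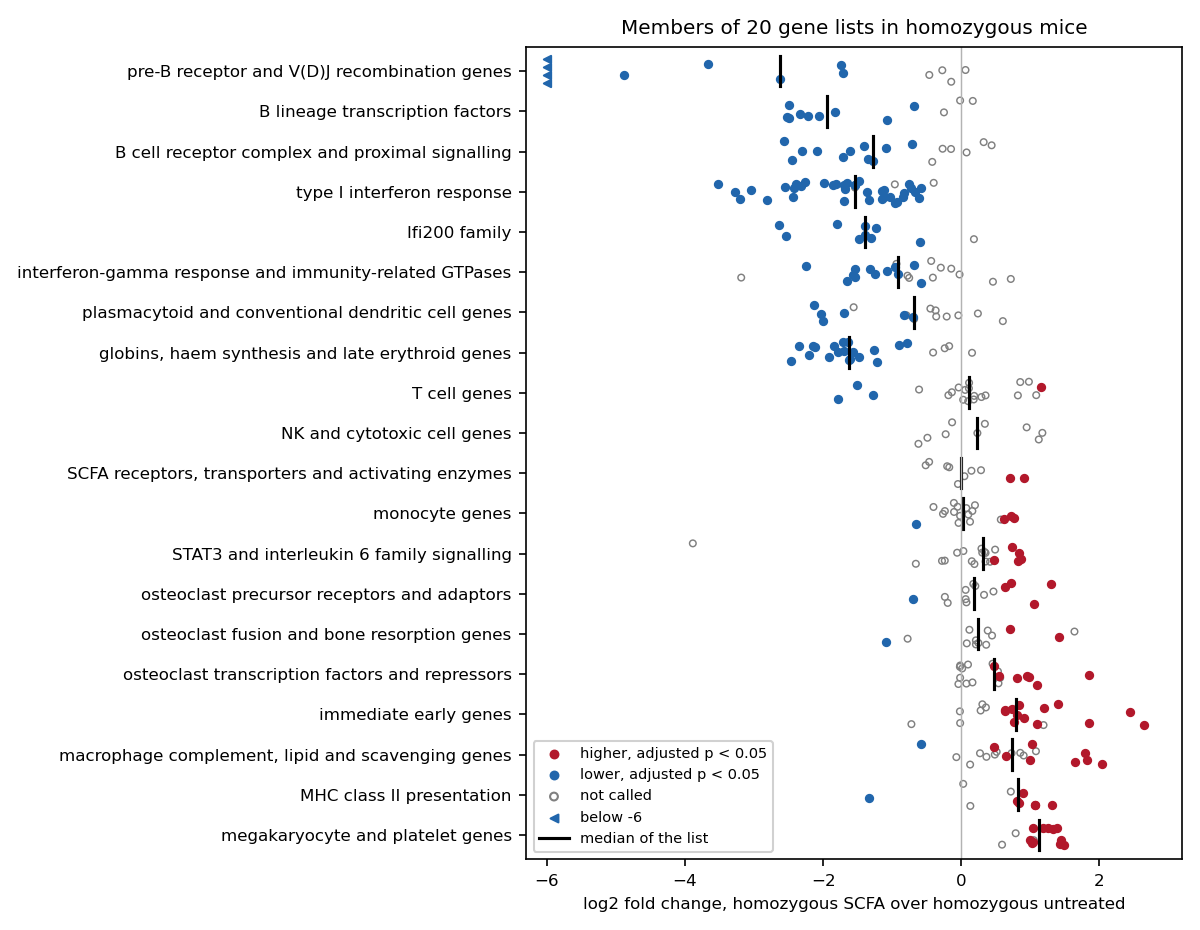
Log2 fold change, homozygous SCFA minus homozygous untreated, of every tested member of 20 gene lists; each point is 1 gene, filled where its adjusted p was under 0.05, the bar marks the list median, and triangles stand for values below -6. Type I interferon, Ifi200, pre-B and late erythroid genes lie to the left of 0 (medians -1.53, -1.40, -2.63 and -1.62), and megakaryocyte, immediate early and MHC class II genes to the right (medians 1.12, 0.79 and 0.83).

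Interferon-stimulated genes were lower almost throughout. Type I interferons bind a receptor that activates a complex of STAT proteins and IRF9, and this complex recognises the interferon-stimulated response element in the promoters of antiviral genes. The core of that element, GAAA, then any 2 bases, then GAAA, on either strand with overlapping matches counted, was searched in RefSeq promoters of build GRCm38.p6, from 250 bases before to 50 bases after the start of the gene. Of the 40 type I interferon genes, 29 had a matched promoter, and 16 of these had the element (55.2%). It was present in 11 of 16 such genes of the interferon-gamma list (68.8%) and in 7 of 10 of the Ifi200 family (70.0%). This compares with 437 of the 10757 genes tested that had a matched promoter (4.06%) and 1079 of all 27025 genes with one (3.99%). A gene with several promoters was counted once, as having the element if any of them did. The promoters of 5 of the genes that fell most or are described first are shown, all 5 from the genes with a match. Each is written 5′ to 3′ on the strand of the gene, with the matches in capitals. A match is a description of the sequence only.
Ifit3 (chr19:34583279-34583578, plus strand): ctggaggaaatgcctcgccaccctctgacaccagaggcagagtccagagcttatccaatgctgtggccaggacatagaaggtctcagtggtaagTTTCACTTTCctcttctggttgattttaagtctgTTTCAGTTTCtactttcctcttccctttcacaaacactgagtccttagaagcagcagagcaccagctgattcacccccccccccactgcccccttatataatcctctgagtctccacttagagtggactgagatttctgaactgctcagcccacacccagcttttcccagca
Ifit1 (chr19:34640639-34640938, plus strand): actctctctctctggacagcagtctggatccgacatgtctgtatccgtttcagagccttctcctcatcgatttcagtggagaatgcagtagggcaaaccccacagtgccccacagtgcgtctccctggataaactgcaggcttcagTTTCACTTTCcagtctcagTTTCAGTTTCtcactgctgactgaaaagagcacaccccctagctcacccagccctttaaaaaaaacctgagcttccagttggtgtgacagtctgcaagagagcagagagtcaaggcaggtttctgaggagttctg
Isg15 (chr4:156200769-156201068, minus strand): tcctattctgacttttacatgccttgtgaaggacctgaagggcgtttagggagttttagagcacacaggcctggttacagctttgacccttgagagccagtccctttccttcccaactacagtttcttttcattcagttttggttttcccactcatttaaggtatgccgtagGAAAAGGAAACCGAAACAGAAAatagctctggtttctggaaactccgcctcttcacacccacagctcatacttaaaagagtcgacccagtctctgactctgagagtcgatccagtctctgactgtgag
Rsad2 (chr12:26456403-26456702, minus strand): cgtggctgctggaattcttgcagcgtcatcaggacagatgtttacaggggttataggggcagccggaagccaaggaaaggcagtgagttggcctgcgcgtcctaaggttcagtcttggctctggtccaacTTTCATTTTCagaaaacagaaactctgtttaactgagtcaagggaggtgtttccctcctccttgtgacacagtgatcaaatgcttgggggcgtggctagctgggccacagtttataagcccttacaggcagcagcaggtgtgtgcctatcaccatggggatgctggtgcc
Oas1g (chr5:120887564-120887863, minus strand): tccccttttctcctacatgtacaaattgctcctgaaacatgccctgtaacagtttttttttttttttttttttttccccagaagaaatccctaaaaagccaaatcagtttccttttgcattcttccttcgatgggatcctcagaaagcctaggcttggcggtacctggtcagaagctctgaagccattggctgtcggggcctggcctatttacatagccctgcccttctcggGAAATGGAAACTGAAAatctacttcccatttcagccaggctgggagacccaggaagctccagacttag

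Of the 40 type I interferon response genes, all tested, 37 were lower with SCFA in homozygous mice and 0 higher, with a median log2 fold change of -1.53. The summed level of the list was 3327 to 3623 CPM in homozygous SCFA libraries, against 7480.2 to 8229 CPM in homozygous untreated libraries. Ifit3, whose product binds viral RNA together with Ifit1, had 9.44, 14.7 and 11.4 CPM in homozygous SCFA libraries, against 139.9, 135 and 132 CPM in homozygous untreated libraries, and was 11.5-fold lower (log2 fold change -3.52, SE 0.17, adjusted p = 1.2e-08). The near-identical neighbour Ifit3b was also lower (log2 fold change -3.27, SE 0.28, adjusted p = 3.1e-06), and counting may have divided reads between the pair. Ifit1 had 47.4, 33.7 and 45.8 CPM in homozygous SCFA libraries, against 359, 347 and 343 CPM in homozygous untreated libraries, again with the groups far apart (log2 fold change -3.05, SE 0.19, adjusted p = 1.3e-07). Ifit2 gave a log2 fold change of -2.44 (adjusted p = 7.1e-08).

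Rsad2, which encodes the antiviral enzyme viperin, had 88.5, 60.5 and 68.4 CPM in homozygous SCFA libraries, against 532, 551 and 451 CPM in homozygous untreated libraries (log2 fold change -2.82, SE 0.16, adjusted p = 4.8e-08). Isg15, the ubiquitin-like modifier coupled to proteins after interferon signalling, had 11.3, 14.7 and 12.6 CPM in homozygous SCFA libraries, against 76.3, 54.8 and 60.9 CPM in homozygous untreated libraries (log2 fold change -2.31, SE 0.17, adjusted p = 4.7e-07). Oas1g, one of a cluster of similar 2′-5′ oligoadenylate synthetase genes, had 1.34, 2.25 and 1.14 CPM in homozygous SCFA libraries, against 12.1, 13.9 and 17.7 CPM in homozygous untreated libraries (log2 fold change -3.20, SE 0.31, adjusted p = 9.4e-06). Ifi27l2a, a small mitochondrial protein induced by interferon, averaged 42.00 ± 7.05 CPM in homozygous SCFA libraries and 247 ± 42.98 CPM in homozygous untreated libraries (SD, n = 3 each; log2 fold change -2.55, SE 0.16, adjusted p = 1.1e-07). The SCFA libraries lay below the untreated ones in these genes, as the naming rule required of Rsad2 and Oas1g and as held for 16.2% of all genes tested.

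Genes that transmit or restrain the interferon signal were lower as well. Irf7, the transcription factor that amplifies interferon production, had 55.9, 58.9 and 57.7 CPM in homozygous SCFA libraries, against 236, 207 and 243 CPM in homozygous untreated libraries (log2 fold change -1.99, SE 0.13, adjusted p = 1.3e-07). Usp18, which removes Isg15 and blocks the receptor, had 14.2, 15.5 and 16.3 CPM in homozygous SCFA libraries, against 79.9, 86.2 and 74.96 CPM in homozygous untreated libraries (log2 fold change -2.39, SE 0.16, adjusted p = 1.6e-07). Irf9 averaged 81.5 ± 5.53 CPM in homozygous SCFA libraries and 158 ± 5.13 CPM in homozygous untreated libraries (SD, n = 3 each; log2 fold change -0.96, SE 0.11, adjusted p = 5.3e-05). Among 6 tested interferon receptor and Janus kinase genes, 1 was higher and 0 lower: Ifngr1, a chain of the interferon-gamma receptor, had a log2 fold change of 0.40 (adjusted p = 0.043), a call lost in 14 of the 20 alternatives run (adjusted p up to 0.168). Jak1, the kinase that both receptor types use, had a log2 fold change of 0.19 (adjusted p = 0.29) and was not called, other than with the GC offset.

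**Figure D2:**
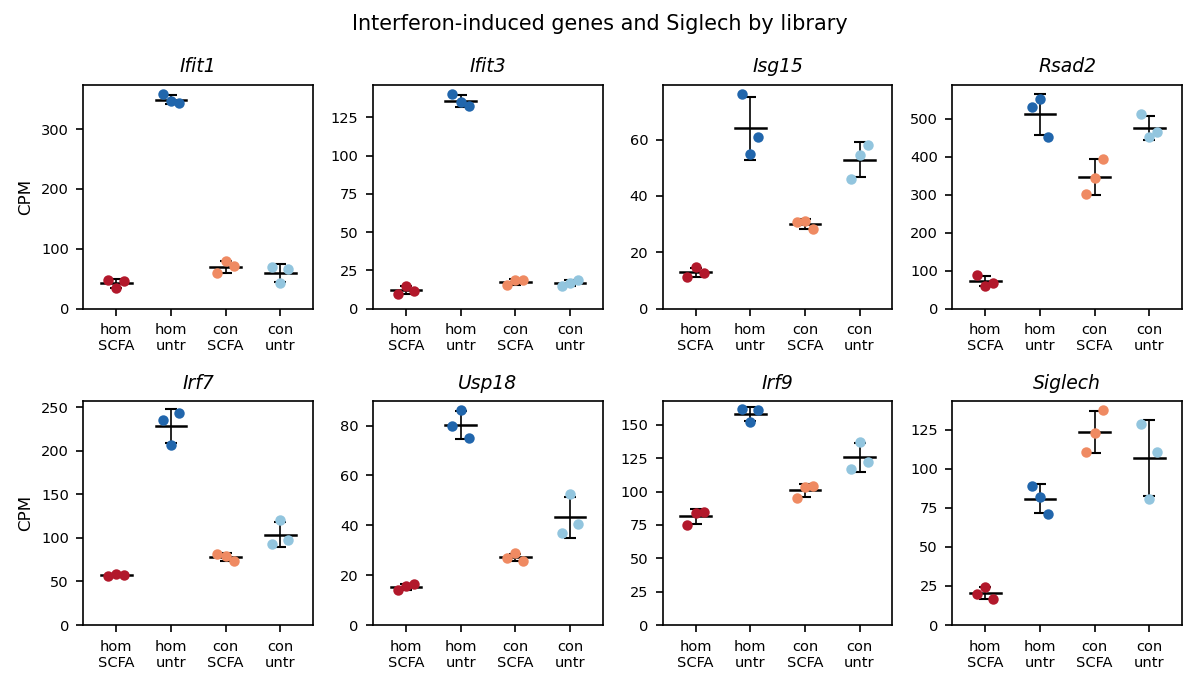
TMM-scaled CPM of 8 genes in each of the 12 libraries, 1 panel per gene, with groups from left to right homozygous SCFA, homozygous untreated, control SCFA and control untreated (hom SCFA, hom untr, con SCFA and con untr on the axis); points are libraries and bars the mean ± SD (n = 3). Ifit3 lies between 9.44 and 14.7 CPM in homozygous SCFA libraries, against 132 to 139.9 CPM in homozygous untreated libraries.

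The fall extended in part to genes induced by interferon-gamma. Of 23 tested members of that list (of 24), 12 were lower and 0 higher, with a median of -0.91. Irgm1, an immunity-related GTPase that acts on vacuoles holding pathogens, had 133, 121 and 119 CPM in homozygous SCFA libraries, against 349, 377 and 358 CPM in homozygous untreated libraries (log2 fold change -1.54, SE 0.13, adjusted p = 3.4e-06). Tgtp2, which has a near-identical copy in Tgtp1, had 20.6, 17.6 and 22.1 CPM in homozygous SCFA libraries, against 59.7, 56.04 and 63.6 CPM in homozygous untreated libraries (log2 fold change -1.57, SE 0.19, adjusted p = 6.2e-05), while Gbp9, a guanylate-binding protein, was lower by less (log2 -1.08, adjusted p = 5.6e-05). Serpina3f, a protease inhibitor gene of the same list, had 3.49, 1.58 and 2.56 CPM in homozygous SCFA libraries, against 12.95, 15.4 and 7.97 CPM in homozygous untreated libraries (log2 fold change -2.25, SE 0.36, adjusted p = 0.0011). The SCFA libraries had the 3 lowest values of each, as held for 16.2% of all genes tested. These genes were named for the smallest p of their list in this comparison, so this is a description.

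In the Ifi200 family of intracellular DNA sensors, 9 of 10 tested members (of 13) were lower and 0 higher, with a median of -1.40. Ifi209, the most abundant member named here, had 407, 300.1 and 394 CPM in homozygous SCFA libraries, against 1079, 1091 and 904 CPM in homozygous untreated libraries (log2 fold change -1.48, SE 0.23, adjusted p = 0.00069). Ifi204 had 180.1, 135 and 186 CPM in homozygous SCFA libraries, against 406, 419.98 and 411 CPM in homozygous untreated libraries (log2 fold change -1.31, SE 0.20, adjusted p = 0.0007). Ifi208 and Ifi213 had larger fold changes at lower levels (log2 -2.64 and -2.54). Family members are close copies of each other, and their values may share reads.

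Ly6 surface antigens include interferon-responsive genes such as Ly6a, and 4 of 8 tested (of 9) were lower and 0 higher. Ly6a, the antigen Sca-1 of stem cells and activated lymphocytes, had 153, 151 and 133 CPM in homozygous SCFA libraries, against 362, 364 and 301 CPM in homozygous untreated libraries (log2 fold change -1.23, SE 0.13, adjusted p = 1.8e-05). Ly6i had 48.4, 55.4 and 53.4 CPM in homozygous SCFA libraries, against 115, 107 and 92.2 CPM in homozygous untreated libraries (log2 fold change -0.999, SE 0.13, adjusted p = 0.00013), and Ly6c2, a marker of inflammatory monocytes, was lower by less (log2 -0.65, adjusted p = 0.0031). Genes of MHC class I presentation did not follow: of 12 tested, 1 was lower and 0 higher, and with the GC offset 6 were lower. The called one was Psme1, a proteasome activator subunit (log2 -0.51, adjusted p = 0.012), and its adjusted p was 0.0614 without SCFA library 3 and 0.0521 without untreated library 1. B2m, the common light chain, gave a log2 fold change of -0.52 (adjusted p = 0.078) and H2-D1, a classical heavy chain, 0.38 (adjusted p = 0.13).

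Plasmacytoid dendritic cells are known for making large amounts of type I interferon. Of 16 tested plasmacytoid and conventional dendritic cell genes, 6 were lower with SCFA and 0 higher, with a median of -0.69. Their summed level was 211 to 249.9 CPM in homozygous SCFA libraries, against 420.3 to 466 CPM in homozygous untreated libraries. Siglech, the surface lectin that defines plasmacytoid cells, had 19.6, 24.4 and 16.7 CPM in homozygous SCFA libraries, against 89.3, 82.1 and 70.8 CPM in homozygous untreated libraries (log2 fold change -2.00, SE 0.19, adjusted p = 7.3e-06). Ccr9, the chemokine receptor of the same cells, had 12.2, 12.1 and 8.54 CPM in homozygous SCFA libraries, against 38.5, 38.7 and 57.6 CPM in homozygous untreated libraries (log2 fold change -2.04, SE 0.20, adjusted p = 1.0e-05), and Cox6a2, at a few CPM, was lower too (log2 -2.14, adjusted p = 0.00015). Xcr1, Clec9a, Batf3, Zbtb46, Cd209a and Itgax, the conventional dendritic cell side of the list, were tested and not called. The 6 lower members, which also included Ly6d, Bst2 and Flt3, moved with the interferon list in the same libraries. Bst2 belongs to both lists, and Ly6d and Flt3 are also in other lists used here. The part of the 6 lower members in the change of the interferon list was not tested.

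B-cell precursor genes were lower in homozygous SCFA libraries. Developing B cells assemble their immunoglobulin genes with the Rag1 and Rag2 recombinase and pair the first heavy chain with a surrogate light chain made from Igll1 and the Vpreb genes. Of 13 pre-B receptor and V(D)J recombination genes, all tested, 9 were lower and 0 higher, and the same numbers held in every fit without 1 library. The median was -2.63, also with the 3 members that had 0 counts in all homozygous SCFA libraries set at their bound. The summed level of the list was 306 to 319 CPM in homozygous SCFA libraries, against 477 to 519.5 CPM in homozygous untreated libraries.

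Rag1 (mm10 2:101638282-101649501, minus strand) had 0 counts in the 3 homozygous SCFA libraries, against 19.5, 17.3 and 13.03 CPM in homozygous untreated libraries. It was at least 309-fold lower, taking 3 counts over the SCFA group as the floor (0.0538 CPM). Rag2, its neighbour on the opposite strand (2:101624718-101632529), likewise had 0 counts in the SCFA libraries, against 20.5, 25.8 and 15.8 CPM in the untreated ones, and was at least 385-fold lower (adjusted p = 2.7e-07 for Rag2 and 6.5e-08 for Rag1). Igll1 had 3 counts in SCFA library 1 and 0 in the other 2, against 18.8, 16.6 and 21.5 CPM in untreated libraries. The ratio of SCFA to untreated was 0.00283, with an exact 95% counting interval of 0.000583 to 0.00829. Vpreb2 also had 0 counts with SCFA and was at least 18.6-fold lower. In control libraries neither recombinase gene was at 0: Rag1 had 50.3, 51.6 and 75.2 CPM in control SCFA libraries, against 43.9, 44.3 and 35.7 CPM in control untreated libraries, and Rag2 had 40.2, 42.8 and 39.4 CPM in control SCFA libraries, against 45.1, 20.6 and 36.4 CPM in control untreated libraries.

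Vpreb1 averaged 0.313 ± 0.271 CPM in homozygous SCFA libraries and 9.27 ± 1.99 CPM in homozygous untreated libraries (SD, n = 3 each; log2 fold change -4.89, SE 0.38, adjusted p = 1.0e-06), and without SCFA library 3, its highest of the group, its log2 fold change was -5.83. Vpreb3, a chaperone of the immunoglobulin chains, had 1.61, 2.91 and 3.99 CPM in homozygous SCFA libraries, against 39.2, 32.05 and 36.6 CPM in homozygous untreated libraries (log2 fold change -3.67, SE 0.22, adjusted p = 8.9e-08). Dntt, the polymerase that adds untemplated bases at the junctions, had 5.36, 2.71 and 3.82 CPM in homozygous SCFA libraries, against 27.96, 21.2 and 24.3 CPM in homozygous untreated libraries (log2 fold change -2.63, SE 0.25, adjusted p = 8.7e-06). Il7r, the interleukin 7 receptor chain on which mouse B-cell precursors depend, had 24.03, 21.8 and 26.4 CPM in homozygous SCFA libraries, against 79.5, 95.6 and 60.4 CPM in homozygous untreated libraries (log2 fold change -1.71, SE 0.23, adjusted p = 0.00021). The groups did not overlap in these genes, which the naming rule required of Vpreb3 and which held for 16.2% of all genes tested with SCFA lower.

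Of 12 B-lineage transcription factors, 9 were lower and 0 higher, with a median of -1.94. Ebf1, which commits progenitors to the B lineage, had 8.47, 8.02 and 8.60 CPM in homozygous SCFA libraries, against 41.9, 52.2 and 47.05 CPM in homozygous untreated libraries, and was 5.63-fold lower (log2 fold change -2.49, SE 0.13, adjusted p = 1.4e-08). Pax5, which acts downstream of Ebf1 and maintains B-cell identity, had 4.40, 3.01 and 2.16 CPM in homozygous SCFA libraries, against 14.4, 15.6 and 14.7 CPM in homozygous untreated libraries (log2 fold change -2.22, SE 0.31, adjusted p = 0.00029). The repressor Bach2, the coactivator Pou2af1 and the Ets factor Spib fell by similar amounts (log2 -2.52, -2.33 and -2.50). Each had its 3 lowest values in the SCFA libraries, as did 16.2% of all genes tested.

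**Figure D3:**
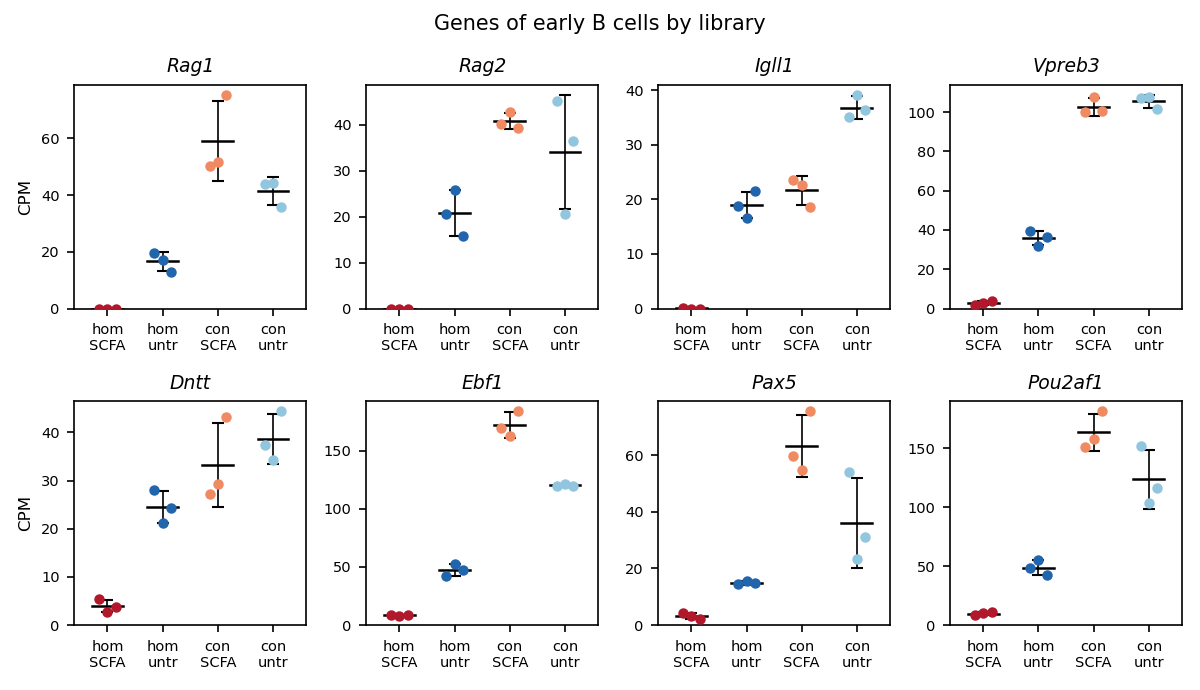
TMM-scaled CPM of 8 B-lineage genes in each of the 12 libraries, groups from left to right homozygous SCFA, homozygous untreated, control SCFA and control untreated (hom SCFA, hom untr, con SCFA and con untr on the axis); points are libraries and bars the mean ± SD (n = 3). Rag1 and Rag2 lie at 0 in the homozygous SCFA libraries only.

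The B-cell receptor list gave 11 lower and 0 higher among 17 genes, with a median of -1.27. Cd72, an inhibitory co-receptor, had 9.76, 8.53 and 8.26 CPM in homozygous SCFA libraries, against 55.4, 44.5 and 57.8 CPM in homozygous untreated libraries (log2 fold change -2.57, SE 0.15, adjusted p = 4.8e-08). The adaptor gene Blnk had 16.9, 20.5 and 15.7 CPM in homozygous SCFA libraries, against 70.2, 76.9 and 79.1 CPM in homozygous untreated libraries (log2 fold change -2.09, SE 0.15, adjusted p = 4.7e-07). The receptor chains themselves fell less: Cd79a had a log2 fold change of -1.40 (adjusted p = 6.5e-06), Cd79b of -1.60 (adjusted p = 6.5e-07) and the constant region of IgM, Ighm, of -1.27 (adjusted p = 2.0e-06).

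Genes of mature B cells had smaller changes. Of 13 tested (of 14), 5 were lower and 0 higher, and the median was -0.58. Ms4a1, which encodes CD20, had 58.6, 42.3 and 53.1 CPM in homozygous SCFA libraries, against 157, 156 and 151 CPM in homozygous untreated libraries (log2 fold change -1.59, SE 0.18, adjusted p = 3.4e-05). Ighd, the constant region of IgD, had 108, 90.9 and 67.4 CPM in homozygous SCFA libraries, against 202, 199.5 and 177 CPM in homozygous untreated libraries (log2 fold change -1.12, SE 0.20, adjusted p = 0.0025). Tnfrsf13c, the survival receptor for BAFF, and Fcmr, the receptor for IgM, were lower by about the same amount (log2 -1.33 and -1.24). Among 8 tested plasma cell genes (of 9), 2 were lower and 1 was higher. The lower ones were Slamf7 (log2 -1.11, adjusted p = 4.3e-05) and Mzb1 (log2 -1.53, adjusted p = 0.026), a call lost in 7 of the 20 alternatives run (adjusted p up to 0.0855). The higher one was Prdm1 (log2 0.95, adjusted p = 0.015), and its adjusted p was 0.0702 without SCFA library 1, 0.0662 without SCFA library 2 and 0.0739 without untreated library 1. The difference between precursor and mature lists was not tested.

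Other genes at 0 counts with SCFA joined the recombinase genes. In all, 112 tested genes had 0 counts in the 3 homozygous SCFA libraries, and 8 of these averaged at least 2 CPM in untreated libraries, against 45 genes with 0 counts in untreated libraries, of which 0 reached that level with SCFA. Beside Rag1 and Rag2, the named ones were Gfra1 (at least 155-fold lower), Col5a3 (at least 78.3-fold), Lgr5 (at least 77.6-fold), Tnfrsf19 (at least 75.5-fold) and Sertad4 (at least 55.4-fold). Lgr5 and Tnfrsf19 are best known as epithelial stem cell genes, and Gfra1 as a neurotrophic factor receptor. Akap12 (mm10 10:4266380-4359470), a scaffold for protein kinases, had 1.39, 2.14 and 1.37 CPM in homozygous SCFA libraries, against 44.7, 47.1 and 40.2 CPM in homozygous untreated libraries, and was 26.7-fold lower (log2 fold change -4.74, SE 0.21, adjusted p = 1.0e-08). Cecr2 (6:120666369-120771190), a bromodomain protein of a chromatin remodeller, had 1.82, 1.84 and 1.54 CPM in homozygous SCFA libraries, against 38.3, 42.8 and 47.9 CPM in homozygous untreated libraries (log2 fold change -4.62, SE 0.16, adjusted p = 8.2e-10). Fam129c, a gene expressed mainly in B cells, had 1.07, 1.69 and 1.54 CPM in homozygous SCFA libraries, against 22.9, 27.3 and 22.6 CPM in homozygous untreated libraries (log2 fold change -4.08, SE 0.19, adjusted p = 1.0e-08).

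Late erythroid genes were lower in the same libraries. Of 23 tested globin, haem synthesis and late erythroid genes (of 24), 19 were lower and 0 higher, with a median of -1.62, and 18 or 19 were lower in every fit without 1 library. Their summed level was 2901 to 3372 CPM in homozygous SCFA libraries, against 10435 to 13581 CPM in homozygous untreated libraries. Alas2, the first enzyme of haem synthesis in erythroid cells, had 167, 214 and 186 CPM in homozygous SCFA libraries, against 872, 713 and 881 CPM in homozygous untreated libraries (log2 fold change -2.12, SE 0.15, adjusted p = 4.7e-07). Hba-a1, which has a near-identical copy in Hba-a2, had 313, 496 and 396 CPM in homozygous SCFA libraries, against 1479, 967 and 1458 CPM in homozygous untreated libraries (log2 fold change -1.70, SE 0.19, adjusted p = 3.0e-05). The SCFA libraries were the lowest in both of these genes, as in 16.2% of all genes tested.

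Other late erythroid members showed the same order of groups. Hbb-bs, an adult beta-globin gene, had 1070.2, 1191 and 1046 CPM in homozygous SCFA libraries, against 6174, 4709.6 and 3759 CPM in homozygous untreated libraries (log2 fold change -2.15, SE 0.17, adjusted p = 1.0e-06). Bpgm, which makes the compound that lowers the oxygen affinity of haemoglobin, had a log2 fold change of -2.21 (adjusted p = 1.0e-08), and the membrane skeleton gene Epb42 one of -2.35 (adjusted p = 3.7e-08). Slc4a1, the anion exchanger band 3, averaged 114 ± 15.6 CPM in homozygous SCFA libraries and 349.7 ± 42.9 CPM in homozygous untreated libraries (SD, n = 3 each; log2 fold change -1.62, SE 0.20, adjusted p = 7.7e-05). The haem enzymes Urod, Uros and Alad and the spectrin gene Sptb were the 4 tested members not called.

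Early erythroid genes were divided. Of 14 tested, 4 were higher and 5 lower. Car2, carbonic anhydrase 2, had 204, 206 and 199 CPM in homozygous SCFA libraries, against 417, 461 and 423 CPM in homozygous untreated libraries (log2 fold change -1.09, SE 0.11, adjusted p = 1.4e-05), and Cpox and Ermap were lower as well (log2 -0.95 and -1.19). Gfi1b, a repressor needed for erythroid and megakaryocyte development, had 12.3, 15.3 and 14.6 CPM in homozygous SCFA libraries, against 7.15, 4.93 and 6.66 CPM in homozygous untreated libraries (log2 fold change 1.17, SE 0.21, adjusted p = 0.0023). Car1, carbonic anhydrase 1, had 59.4, 46.7 and 45.5 CPM in homozygous SCFA libraries, against 7.59, 8.27 and 6.76 CPM in homozygous untreated libraries (log2 fold change 2.74, SE 0.62, adjusted p = 0.013), and its adjusted p was 0.0592 without untreated library 1, 0.0556 without untreated library 2 and 0.222 with DESeq2. The number of higher members was 2 without SCFA library 2, SCFA library 3, untreated library 2 or untreated library 3, and 1 without untreated library 1, and the number of lower members was 3 without SCFA library 2.

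**Figure D4:**
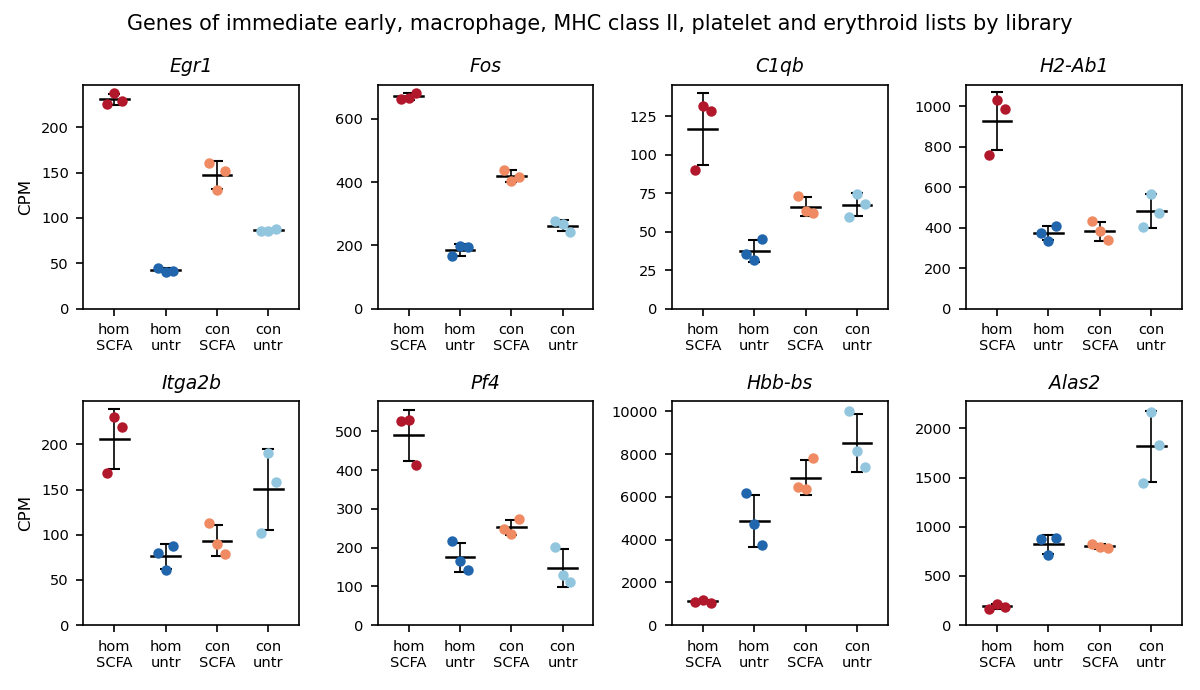
TMM-scaled CPM of 6 genes higher with SCFA and of the erythroid genes Hbb-bs and Alas2 in each of the 12 libraries, groups from left to right homozygous SCFA, homozygous untreated, control SCFA and control untreated (hom SCFA, hom untr, con SCFA and con untr on the axis); points are libraries and bars the mean ± SD (n = 3). Fos lies between 664 and 683 CPM in homozygous SCFA libraries, against 165 to 196 CPM in homozygous untreated libraries.

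Megakaryocyte and platelet genes were higher. Of 14 tested, 11 were higher and 0 lower, with a median of 1.12, and 10 to 13 were higher in the fits without 1 library. Their summed level was 1372 to 1572 CPM in homozygous SCFA libraries, against 632 to 787 CPM in homozygous untreated libraries. Itga2b, the platelet integrin chain CD41, had 168, 231 and 219 CPM in homozygous SCFA libraries, against 80.3, 60.8 and 87.1 CPM in homozygous untreated libraries (log2 fold change 1.44, SE 0.22, adjusted p = 0.00072). Pf4, platelet factor 4, had 527, 528 and 413 CPM in homozygous SCFA libraries, against 216, 166 and 142 CPM in homozygous untreated libraries (log2 fold change 1.49, SE 0.21, adjusted p = 0.0003). Vwf, the clotting protein that tethers platelets, had 61.2, 66.8 and 68.9 CPM in homozygous SCFA libraries, against 23.6, 21.01 and 33.3 CPM in homozygous untreated libraries (log2 fold change 1.34, SE 0.19, adjusted p = 0.00043). Gp5 and Tubb1, a platelet receptor subunit and the platelet beta-tubulin, had log2 fold changes of 1.39 and 1.25. The 3 tested members not called, Ppbp, Gp6 and Gp1bb, had log2 fold changes above 0.

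Immediate early genes, switched on rapidly by growth factors, stress or handling of cells, were higher. Of 20 tested (of 22), 13 were higher and 0 lower, with a median of 0.79. Egr1 had 226, 238 and 229 CPM in homozygous SCFA libraries, against 44.7, 40.3 and 41.9 CPM in homozygous untreated libraries, and was 5.46-fold higher (log2 fold change 2.45, SE 0.12, adjusted p = 1.0e-08). Egr2, needed with its relatives for myeloid differentiation, had 15.6, 13.6 and 11.2 CPM in homozygous SCFA libraries, against 2.82, 1.69 and 1.95 CPM in homozygous untreated libraries (log2 fold change 2.64, SE 0.26, adjusted p = 1.2e-05). Fos, which osteoclast formation requires, had 664, 666 and 683 CPM in homozygous SCFA libraries, against 165, 196 and 196 CPM in homozygous untreated libraries (log2 fold change 1.85, SE 0.11, adjusted p = 7.4e-08). The SCFA libraries were the highest in each, which the naming rule required of these genes and which held for 13.9% of all genes tested.

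Further immediate early genes rose. Dusp1, a phosphatase that switches off MAP kinases, had 609.5, 684 and 712 CPM in homozygous SCFA libraries, against 258, 243 and 261 CPM in homozygous untreated libraries (log2 fold change 1.40, SE 0.11, adjusted p = 9.0e-07). Junb averaged 596 ± 81.2 CPM in homozygous SCFA libraries and 277 ± 31.7 CPM in homozygous untreated libraries (SD, n = 3 each; log2 fold change 1.10, SE 0.17, adjusted p = 0.00065), and Ier2 averaged 296 ± 41.1 CPM in homozygous SCFA libraries and 128 ± 16.4 CPM in homozygous untreated libraries (SD, n = 3 each; log2 fold change 1.204, SE 0.17, adjusted p = 0.00029). Jun was higher by less (log2 0.81, adjusted p = 0.0086). Nr4a1 passed the test narrowly (log2 0.77, adjusted p = 0.045), a call lost in 13 of the 20 alternatives run (adjusted p up to 0.168).

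Genes of the osteoclast pathway moved in part. Of 19 tested osteoclast transcription factors and repressors (of 20), 7 were higher and 0 lower, with a median of 0.47, and 5 to 10 were higher in the fits without 1 library. Besides Fos, Junb and Jun, which are also immediate early genes, these included Nfatc1, the master regulator of osteoclast genes, with 128, 133 and 145 CPM in homozygous SCFA libraries, against 82.5, 103 and 92.8 CPM in homozygous untreated libraries (log2 fold change 0.54, SE 0.12, adjusted p = 0.013), and its adjusted p was 0.0657 without SCFA library 3 and 0.0646 without untreated library 1. They also included genes that oppose osteoclast formation. The repressors Bcl6 and Prdm1 had log2 fold changes of 0.47 (adjusted p = 0.022) and 0.95 (adjusted p = 0.015). Of Bcl6 the call was lost in 5 of the 12 fits without 1 library, each without a homozygous library.

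Of 14 tested osteoclast precursor receptors and adaptors (of 15), 4 were higher and 1 lower. Itgb3, the beta-3 integrin chain of osteoclasts and platelets, had 245, 215 and 209 CPM in homozygous SCFA libraries, against 107, 106 and 108 CPM in homozygous untreated libraries (log2 fold change 1.06, SE 0.13, adjusted p = 0.00011). Trem2, a receptor that signals through the adaptor Tyrobp, had 22.7, 32.4 and 28.99 CPM in homozygous SCFA libraries, against 12.4, 10.1 and 11.6 CPM in homozygous untreated libraries (log2 fold change 1.30, SE 0.20, adjusted p = 0.00062), and Tyrobp itself was higher by less (log2 0.64, adjusted p = 0.0049). Csf1r was higher (log2 fold change 0.73, SE 0.16, adjusted p = 0.012), and its adjusted p was 0.0508 without SCFA library 3 and 0.0567 without untreated library 2. Tnfrsf11a, which encodes RANK, had 35.8, 33.6 and 30.3 CPM in homozygous SCFA libraries and 31.8, 19.9 and 27.5 CPM in homozygous untreated libraries, and the groups overlapped (log2 0.33, adjusted p = 0.31). Flt3, a receptor of early progenitors, was the member that was lower (log2 -0.69, adjusted p = 0.0088), and its adjusted p was 0.0534 without SCFA library 3.

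Genes that mature osteoclasts use to fuse and to resorb bone gave few calls. Of 17, 13 could be tested, and 2 were higher and 1 lower. The median log2 fold change was 0.25, and 11 of the 13 had a log2 fold change above 0. Mmp9, a gelatinase that neutrophils also store, had 1133, 1488 and 1483 CPM in homozygous SCFA libraries, against 808, 754 and 943 CPM in homozygous untreated libraries (log2 fold change 0.71, SE 0.15, adjusted p = 0.0096). Src, a kinase of the osteoclast cytoskeleton, was higher at a few CPM (log2 1.41, adjusted p = 0.019), and its adjusted p was 0.0741 without SCFA library 2, 0.0555 without SCFA library 3, 0.0577 without untreated library 3 and 0.0671 with no filter on low counts. The lower one was Car2, already described. Ctsk, the collagen-degrading protease cathepsin K, had 0.751, 0.204 and 1.25 CPM in homozygous SCFA libraries and 0.813, 2.16 and 0.802 CPM in homozygous untreated libraries, with overlap (log2 -0.78, adjusted p = 0.5). Dcstamp, Ocstamp, Calcr and Siglec15 were below the filter on low counts.

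Macrophage genes of complement and lipid handling were higher. Of 19 tested (of 20), 8 were higher and 1 lower, a member not called in 9 of the 12 fits without 1 library. The median was 0.73, and their summed level was 3846 to 4381 CPM in homozygous SCFA libraries, against 2272 to 2414 CPM in homozygous untreated libraries. C1qb, a chain of the complement component C1q, had 90.04, 132 and 129 CPM in homozygous SCFA libraries, against 35.5, 31.5 and 45.3 CPM in homozygous untreated libraries (log2 fold change 1.64, SE 0.18, adjusted p = 2.4e-05). The other two chains moved the same way (C1qa, log2 2.03; C1qc, log2 1.82). Apoe, the lipid carrier apolipoprotein E, had 934, 1423 and 1337 CPM in homozygous SCFA libraries, against 355, 301 and 407 CPM in homozygous untreated libraries (log2 fold change 1.80, SE 0.18, adjusted p = 1.3e-05). Gpnmb, a glycoprotein of macrophages and osteoclasts, had 711, 774 and 823 CPM in homozygous SCFA libraries, against 370.1, 381 and 376 CPM in homozygous untreated libraries (log2 fold change 1.03, SE 0.10, adjusted p = 1.4e-05). Trf, which encodes transferrin, averaged 300.2 ± 32.8 CPM in homozygous SCFA libraries and 151 ± 14.2 CPM in homozygous untreated libraries (SD, n = 3 each; log2 fold change 0.995, SE 0.15, adjusted p = 0.00078). Adgre1, the general macrophage marker F4/80, gave a log2 fold change of 0.27 (adjusted p = 0.17). The resident macrophage genes Cd163, Timd4, Spic and Cd5l were tested at low levels and not called.

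MHC class II genes, which present peptides to CD4 T cells, had 6 higher and 1 lower among 10 tested, with a median of 0.83. H2-Ab1 had 761.7, 1029.9 and 989.9 CPM in homozygous SCFA libraries, against 375, 336 and 408 CPM in homozygous untreated libraries (log2 fold change 1.31, SE 0.16, adjusted p = 6.1e-05). H2-Aa, which pairs with it, had 425, 458 and 446 CPM in homozygous SCFA libraries, against 246, 244 and 227 CPM in homozygous untreated libraries (log2 fold change 0.89, SE 0.10, adjusted p = 4.5e-05), and Cd74, the invariant chain, averaged 1528 ± 262 CPM in homozygous SCFA libraries and 724 ± 106 CPM in homozygous untreated libraries (SD, n = 3 each; log2 fold change 1.08, SE 0.15, adjusted p = 0.00036). The one lower member was H2-Ob, a chain of the modulator H2-O found mainly in B cells, with 20.97, 20.4 and 26.7 CPM in homozygous SCFA libraries, against 49.3, 57.3 and 65.5 CPM in homozygous untreated libraries (log2 fold change -1.34, SE 0.15, adjusted p = 2.9e-05). Ciita, the master regulator of the class II genes, had a log2 fold change of 0.72 (adjusted p = 0.069).

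Complement and cytokine genes gave smaller sets. Of 14 acute phase, complement and serpin genes, 5 were higher and 1 lower. C4b had 12.3, 10.5 and 7.74 CPM in homozygous SCFA libraries, against 2.49, 1.80 and 2.71 CPM in homozygous untreated libraries (log2 fold change 2.12, SE 0.37, adjusted p = 0.002), and Saa3, an acute phase protein made by macrophages and granulocytes, had 623, 734 and 617 CPM in homozygous SCFA libraries, against 378, 308 and 292 CPM in homozygous untreated libraries (log2 fold change 1.01, SE 0.12, adjusted p = 8.9e-05). The lower one was Serpina3f. The number of higher members was 3 without SCFA library 2, SCFA library 3, untreated library 1 or untreated library 2.

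Of 25 tested inflammatory chemokines and cytokines (of 29), 7 were higher and 1 lower. Il1b, encoding interleukin 1 beta, had 459.96, 502 and 477 CPM in homozygous SCFA libraries, against 286, 313 and 278 CPM in homozygous untreated libraries (log2 fold change 0.72, SE 0.10, adjusted p = 0.00032). The chemokine gene Ccl3 had 64.9, 67.6 and 56.7 CPM in homozygous SCFA libraries, against 20.1, 22.2 and 13.98 CPM in homozygous untreated libraries (log2 fold change 1.75, SE 0.16, adjusted p = 6.7e-06), and its neighbour Ccl4 had a log2 fold change of 1.44 (adjusted p = 6.2e-05). Osm, a cytokine of the interleukin 6 family, had 78.9, 98.3 and 95.7 CPM in homozygous SCFA libraries, against 45.7, 40.7 and 49.5 CPM in homozygous untreated libraries (log2 fold change 1.01, SE 0.15, adjusted p = 0.00069).

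STAT3 itself did not pass the test. Stat3 had 319, 373 and 397 CPM in homozygous SCFA libraries and 292, 267 and 322 CPM in homozygous untreated libraries (log2 0.31, adjusted p = 0.24), and the groups overlapped. Socs3 had 118, 163 and 171 CPM in homozygous SCFA libraries, against 94.8, 72.9 and 102 CPM in homozygous untreated libraries (log2 fold change 0.74, SE 0.19, adjusted p = 0.028), and its adjusted p was 0.0973 without SCFA library 2, 0.117 without SCFA library 3, 0.0665 without untreated library 1 and 0.123 without untreated library 2. Of 20 genes of STAT3 and interleukin 6 family signalling, 5 were higher and 0 lower, with a median of 0.32. This count was 3 without SCFA library 2, 2 without SCFA library 3, 3 without untreated library 2 and 3 without untreated library 3. Csf3r, the receptor for the granulocyte growth factor G-CSF, had 1165, 1461 and 1463 CPM in homozygous SCFA libraries, against 727, 733 and 822 CPM in homozygous untreated libraries (log2 fold change 0.84, SE 0.16, adjusted p = 0.0047). Pias3, an inhibitor of STAT3, and Lifr were higher too (log2 0.87, adjusted p = 0.011 for Pias3 and log2 0.82, adjusted p = 0.013 for Lifr). For Lifr the call was lost without SCFA library 1, SCFA library 3 or untreated library 3 (adjusted p up to 0.0686).

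Among genes that sense, carry or activate SCFAs, 10 of 15 could be tested, and 2 were higher and 0 lower. Over all genes tested, 3.96% were higher and 5.61% lower. The median of the list was 0.00, with 5 members above 0 and 5 below. Hcar2, the receptor for butyrate, ketone bodies and niacin, had 141, 154 and 164 CPM in homozygous SCFA libraries, against 89.6, 75.3 and 79.3 CPM in homozygous untreated libraries (log2 fold change 0.91, SE 0.14, adjusted p = 0.00091). Slc16a3, a lactate and monocarboxylate exporter, was higher (log2 0.71, adjusted p = 0.027), and its adjusted p was 0.104 without SCFA library 2, 0.101 without SCFA library 3, 0.0677 without untreated library 1 and 0.119 without untreated library 2. Ffar2, the main acetate receptor of leukocytes, had 9.97, 12.8 and 12.6 CPM in homozygous SCFA libraries and 12.5, 10.7 and 13.4 CPM in homozygous untreated libraries, and the groups overlapped (log2 -0.05, adjusted p = 0.93). Ffar3 and Slc5a8 had 0 counts in the homozygous libraries. Of 11 histone deacetylase genes, 1 was higher and 2 lower. Their median was -0.21, and 8 of the 11 had a log2 fold change below 0. Hdac9 had 3.16, 2.86 and 2.33 CPM in homozygous SCFA libraries, against 7.26, 10.1 and 7.42 CPM in homozygous untreated libraries (log2 fold change -1.57, SE 0.20, adjusted p = 0.00011), Hdac8 was lower (log2 -0.93, adjusted p = 0.0034) and Hdac4 higher (log2 0.59, adjusted p = 0.017). For Hdac4 the call was lost without SCFA library 2, SCFA library 3, untreated library 1 or untreated library 2 (adjusted p up to 0.0726).

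T cells are the cells in which CD4-Cre is active. Of 21 tested T-cell genes, 1 was higher and 3 lower, and their summed level was 116 to 120.2 CPM in homozygous SCFA libraries, against 107 to 117 CPM in homozygous untreated libraries. The median log2 fold change was 0.11, and 14 of the 21 had a log2 fold change above 0. Cd8a had 3.00, 4.80 and 4.61 CPM in homozygous SCFA libraries, against 13.98, 9.81 and 11.7 CPM in homozygous untreated libraries (log2 fold change -1.51, SE 0.24, adjusted p = 0.001) and Cd2 3.91, 5.92 and 5.01 CPM in homozygous SCFA libraries, against 13.6, 9.35 and 13.1 CPM in homozygous untreated libraries (log2 fold change -1.28, SE 0.21, adjusted p = 0.0016), whereas Lat, an adaptor that platelets also express, was higher (log2 1.15, adjusted p = 0.0052). Cd4 had 0.536, 0.970 and 3.08 CPM in homozygous SCFA libraries, against 4.99, 7.29 and 3.41 CPM in homozygous untreated libraries (log2 fold change -1.78, SE 0.52, adjusted p = 0.046), a call lost in 8 of the 20 alternatives run (adjusted p up to 0.173), and its log2 fold change was -2.78 without SCFA library 3. Of 9 tested NK and cytotoxic cell genes (of 13), edgeR called 0 and DESeq2 called 1, and 2 had an unadjusted p under 0.05 with edgeR.

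The labels call the cells progenitors, and markers of later cells were abundant. Secondary granule and late neutrophil genes made up 72551 to 83696 CPM in homozygous SCFA libraries, against 69539 to 89998 CPM in homozygous untreated libraries, while stem and progenitor cell genes made up 711 to 763 CPM in homozygous SCFA libraries, against 1009.8 to 1112 CPM in homozygous untreated libraries. Of 15 tested stem and progenitor genes (of 18), 2 were higher and 5 lower, against 4 and 7 with DESeq2, and 4 were higher without control untreated library 1. Cd34 had 51.2, 47.2 and 47.8 CPM in homozygous SCFA libraries, against 92.4, 72.8 and 78.9 CPM in homozygous untreated libraries (log2 fold change -0.74, SE 0.13, adjusted p = 0.0017), and Sox4, a transcription factor of early lymphoid and stem cells, 10.5, 12.5 and 9.85 CPM in homozygous SCFA libraries, against 23.95, 18.5 and 24.3 CPM in homozygous untreated libraries (log2 fold change -1.02, SE 0.17, adjusted p = 0.0015). Of 20 secondary granule and late neutrophil genes, 4 were higher and 0 lower, although 2 were lower without control untreated library 2. Of 18 monocyte genes, 3 were higher and 1 lower, and the number higher was 0 without SCFA library 3 or untreated library 2, and 1 without SCFA library 2, untreated library 1, control untreated library 3 or any 1 of the control SCFA libraries.

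Beyond the lists, the largest rises by the naming rule included Gdpd3, Skint3, Plxna4, Shtn1 and Mrvi1. Gdpd3, a lysophospholipase D, had 19.7, 28.2 and 24.999 CPM in homozygous SCFA libraries, against 1.57, 1.13 and 1.80 CPM in homozygous untreated libraries, and was 16.1-fold higher (log2 fold change 4.01, SE 0.25, adjusted p = 1.2e-07). Mrvi1, a substrate of cGMP-dependent kinase in platelets and smooth muscle, had 36.3, 39.1 and 36.4 CPM in homozygous SCFA libraries, against 10.3, 10.4 and 10.6 CPM in homozygous untreated libraries (log2 fold change 1.83, SE 0.18, adjusted p = 8.3e-06). Plxna4, a semaphorin receptor, and Shtn1 were higher at levels near 10 CPM (log2 2.13 and 1.97). Skint3 had 20.003, 12.6 and 13.6 CPM in homozygous SCFA libraries, against 0.976, 4.57 and 0.752 CPM in homozygous untreated libraries (log2 fold change 2.87, SE 0.59, adjusted p = 0.0074), and its log2 fold change was 4.15 without untreated library 2.

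In control mice the same treatment gave 1393 genes higher, 8.89% of those tested, and 2039 lower, 13%. These totals moved with single libraries and with the GC offset. The sum of 3432 calls was 1697 without control SCFA library 2, 613 without control SCFA library 3, 1292 without control untreated library 2, 1935 without control untreated library 3 and 5090 without control untreated library 1, and with the GC offset 321 genes were higher and 672 lower. Of the 621 genes higher in homozygous mice, 70 were also higher in control mice, 11.3% of the homozygous list and 5.03% of the control list, and 192 were lower there. Of the 880 lower genes, 121 were also lower in control mice, 13.8% and 5.93% of the lists, and 87 were higher. With the GC offset the number of opposite calls was 82 of 1020 and 20 of 904.

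The difference between the genotypes, homozygous minus control SCFA effect, was tested directly. It was above 0 for 2125 genes (13.6%) and below 0 for 1813 (11.6%), together 3938, and with the GC offset for 1031 and 645. The sum was 2478 without control SCFA library 3, 2455 without homozygous SCFA library 2 and 2579 without homozygous untreated library 2. Of the genes higher in homozygous mice, 446 of 621 (71.8%) also had a called difference of the same sign, and of the lower genes 651 of 880 (74.0%). Because the same homozygous libraries enter both tests, these shares are a description.

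Interferon genes differed between the genotypes. In control mice 8 of the 40 type I interferon genes were higher and 8 lower, with a median of 0.21, or 2 higher and 3 lower with the GC offset. The difference was below 0 for 34, or 35 with the GC offset. Summed over the list, levels were 3845 to 4122 CPM in control SCFA libraries and 3385 to 3754 CPM in control untreated libraries. In homozygous mice they were 3327 to 3623 CPM with SCFA and 7480.2 to 8229 CPM without it. The homozygous untreated libraries thus had the highest sums of all groups, and the part of this starting level in the difference was not tested. Ifit3 had 15.4, 18.5 and 18.4 CPM in control SCFA libraries, against 14.99, 16.5 and 18.4 CPM in control untreated libraries, with overlap, and the difference was -3.59 (adjusted p = 5.4e-07), or -3.27 with the GC offset (adjusted p = 3.4e-07). For Ifit1 it was -3.28 (adjusted p = 3.7e-06), or -2.69 with the GC offset (adjusted p = 1.3e-06). Isg15, in contrast, was lower in control mice as well (log2 -0.81, adjusted p = 0.0063).

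B-lineage genes differed likewise. Of the 13 pre-B and V(D)J genes 2 were higher and 1 lower in control mice, or 1 and 1 with the GC offset, and the difference was below 0 for 11, or 9 with the GC offset. Ebf1 had 169, 162 and 184 CPM in control SCFA libraries, against 119, 121 and 119.6 CPM in control untreated libraries, and its difference was -3.01 (adjusted p = 1.8e-07), or -2.37 with the GC offset (adjusted p = 1.3e-06). For Ly6a, which was higher in control mice (log2 0.92, adjusted p = 0.0014), the difference was -2.15 (adjusted p = 5.8e-06), or -1.89 with the GC offset (adjusted p = 1.3e-06).

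Late erythroid genes were lower in both genotypes. In control mice 17 of 23 were lower and 0 higher, or 18 and 0 with the GC offset. The median was -1.62 in homozygous mice and -1.27 in control mice, and the difference was below 0 for 8 and above 0 for 3, or 7 and 0 with the GC offset. Alas2 was lower in control mice too (log2 -1.18, adjusted p = 0.00075), as was Hba-a1 (log2 -1.38, adjusted p = 0.0011).

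Among the higher sets, immediate early genes had a difference above 0 for 13 of 20, or 11 with the GC offset. In control mice 4 of these genes were higher and 3 lower, or 6 and 0 with the GC offset. Fos was higher in control mice by less (log2 0.68, adjusted p = 0.0035), with a difference of 1.18 (adjusted p = 0.0003), or 0.98 with the GC offset (adjusted p = 0.00092). Megakaryocyte genes had a difference above 0 for 6 of 14, or 5 with the offset. Of these 14, 4 were higher and 1 lower in control mice (median 0.47), or 5 and 0 with the GC offset. The difference of Itga2b was 2.12 (adjusted p = 0.00075), or 1.203 with the GC offset (adjusted p = 0.00057). MHC class II genes had a difference above 0 for 8 of 10 and below 0 for 1, or 5 and 1 with the offset. In control mice 1 class II gene was higher and 3 lower, or 1 and 1 with the GC offset. The difference of H2-Ab1 was 1.64 (adjusted p = 0.00036), or 0.79 with the GC offset (adjusted p = 0.00011). Macrophage complement, lipid and scavenging genes had a difference above 0 for 8 of 19 and below 0 for 1, or 7 and 1 with the offset. Of these 19, 6 were higher and 2 lower in control mice (median 0.41), or 5 and 0 with the GC offset. Gdpd3 was higher in both genotypes (log2 3.34, adjusted p = 1.7e-05 in control mice), and its difference of 0.67, or 0.24 with the GC offset (adjusted p = 0.64), did not pass the test.

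**Figure D5:**
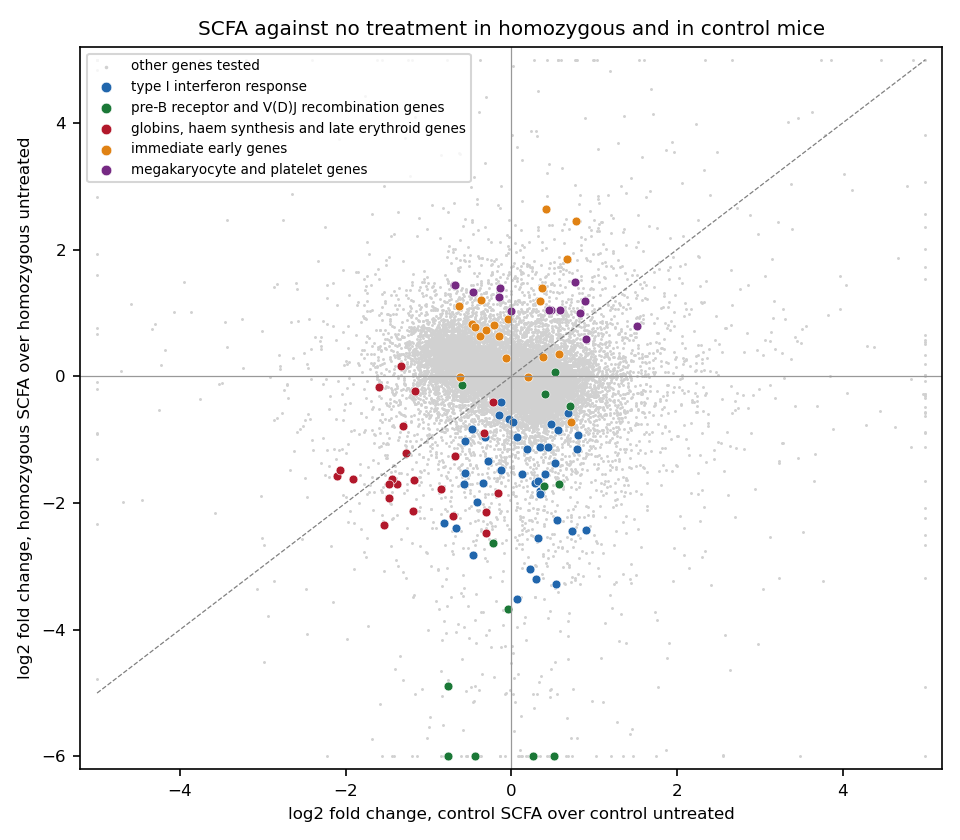
Log2 fold change SCFA minus untreated in homozygous mice (vertical axis) against control mice (horizontal axis) for all genes tested, with the type I interferon, pre-B, late erythroid, immediate early and megakaryocyte lists in colour and a dashed line of equal change; values beyond the axis limits are drawn at the limits. Type I interferon genes lie below 0 on the homozygous axis (median -1.53) and around 0 on the control axis (median 0.21), and late erythroid genes lie below 0 on both (medians -1.62 and -1.27).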

How the data were processed

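Poly(A) RNA of non-adherent mouse marrow cells was sequenced in 12 libraries, 3 in each of 4 groups named in the sample titles. Per the labels' protocols, Qiagen's RNeasy Plus Micro Kit gave the RNA, and Clontech's low input poly(A) method the libraries. The deposited table holds raw counts per gene symbol, which the authors made with STAR and featureCounts on mm10, as the submitters' processing notes list them. Not given in the sources used here are tool versions, the annotation and whether counting used strand, so a gene and an overlapping or antisense neighbour may share reads. Of 55291 symbols, 22077 were at 0 in every library.

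The test was edgeR 4.0.16 under R 4.3.3 (TMM factors, filterByExpr by group, quasi-likelihood F test with 4 group means over 12 libraries), with Benjamini-Hochberg adjustment over the 15674 genes that passed the filter and a threshold of 0.05. The 3 contrasts were SCFA minus untreated in homozygous mice, the same in control mice, and their difference. The code was tested on simulated counts. Alternatives were DESeq2 1.42.0, limma-voom (limma 3.58.1), RLE factors, no filter, only the libraries compared, the replicate number as a block, leaving out immunoglobulin, globin and mitochondrial genes, leaving out each library, and a GC-content offset.

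Of 47 gene lists, the members were counted and their median given, with no set test. The members and lists were chosen with earlier results of these data known. Named genes are the 12 called genes with the largest rise and the 12 with the largest fall, limited to means of 5 CPM or more and no overlap between the groups, 4 members of each list, the 8 largest genotype differences each way and a few fixed genes. Irf7, Usp18, Irf9, Dntt, Vpreb1, Vpreb2, Il7r, Pax5, Cd79a, Hbb-bs, Slc4a1, Itga2b, Ier2, Nfatc1, Cd74, Ciita, Trf, Adgre1 and other members named as not called were chosen after their values were seen. A few genes that meet the rule are not reported here. Coordinates are those of GENCODE M21 on mm10, in which 53292 of the symbols (96.4%) were found. Promoters came from RefSeq, and promoters that were not matched are not used here. Libraries held 16954355 to 20748995 counts, and floors and intervals cover counting error only.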

Additional observations from a re-analysis of the deposited data

Results flagged for a closer look

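The SCFA effect differed between the genotypes, by a direct test of the difference (edgeR quasi-likelihood, homozygous minus control, in log2 units), for the genes given here. All of these differences were also called with the GC offset, and the size with the offset is given second.

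Among genes with a difference above 0, Car1 had 3.43 (adjusted p = 0.039), or 3.93 with the GC offset (adjusted p = 0.035). Egr2 had 2.23 (adjusted p = 0.0013), or 2.10 with the GC offset (adjusted p = 0.0017). Apoe, which was higher with SCFA in homozygous mice and lower in control mice (log2 -0.72, adjusted p = 0.013), had 2.52 (adjusted p = 3.2e-05), or 1.54 with the GC offset (adjusted p = 5.5e-07). Its list did not share this fall, since 6 of the 19 macrophage genes tested were higher and 2 lower in control mice. Colec12, a scavenger receptor gene, had 3.68 (adjusted p = 0.026), or 4.26 with the GC offset (adjusted p = 0.025), although neither genotype alone passed the test for it. Krt83, a hair keratin gene, had 2.54 (adjusted p = 0.002), or 1.60 with the offset. Dip2a had 2.34 (adjusted p = 0.004), or 1.99. Myl9, a myosin light chain of smooth muscle and platelets, had 2.20 (adjusted p = 0.00071), or 1.37, and Tab1, an adaptor of TGF-beta activated kinase, had 2.18 (adjusted p = 0.0018), or 1.22. Fos had a smaller difference of 1.18, or 0.98, H2-Ab1 one of 1.64, or 0.79, and Itga2b one of 2.12, or 1.203.

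Among genes with a difference below 0, Rag2 had -11.89 (adjusted p = 2.6e-06), or -11.32, and Rag1 -11.82 (adjusted p = 5.4e-07), or -11.36. Gfra1 had -10.83, or -10.87, Lgr5 -9.81, or -9.43, Tnfrsf19 -9.80, or -9.81, Sertad4 -9.14, or -9.10, and Col5a3 -8.79, or -9.72. These genes had 0 counts in the homozygous SCFA libraries, so the fitted differences depend on the prior count and give no bound. Igll1, with 3 counts in that group, had -7.53 (adjusted p = 8.8e-07), or -7.47.

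Akap12 had 155, 176 and 188 CPM in control SCFA libraries, against 111, 164 and 127 CPM in control untreated libraries, and its difference was -5.10 (adjusted p = 9.3e-08), or -5.36. Cecr2 was higher in control mice (log2 0.48, adjusted p = 0.016), and its difference was -5.11 (adjusted p = 5.1e-09), or -4.78. Ifit3 had -3.59, or -3.27, Ifit1 -3.28, or -2.69, Ebf1 -3.01, or -2.37, and Ly6a -2.15, or -1.89.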

How the results depend on the processing

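The 1501 calls in homozygous mice became 2302 with DESeq2 and 2988 with limma-voom, and 743 to 1998 in fits without 1 library. The 621 higher genes became 1009 with DESeq2, 1463 with limma-voom, 1020 with the GC offset and 265 to 964 without 1 library, and the 880 lower genes 1525 with limma-voom and 478 to 1095 without 1 library. The 3432 calls in control mice became 993 with the GC offset, 2035 with only the libraries compared and 613 to 5090 without 1 library. The 3938 called differences between genotypes became 1676 with the GC offset and 2455 to 5379 without 1 library. The cause was not tested.

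Replicate numbers did not pair the homozygous libraries, whose same-numbered deviations correlated at -0.05 to 0.01. With the replicate block 516 genes were higher and 766 lower in homozygous mice. A fit of the genotype difference to only the libraries compared was not run, since it uses all 12. Among values of named genes under the alternatives, 3951 kept their direction and their side of the threshold, 231 were no longer called, 87 became called and 3 changed sign. All 3 were of Ffar2, which was not called, with a log2 fold change of 0.016 under limma-voom and -0.14 to 0.053 without 1 library.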

Other observations

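Stress and cell cycle genes gave smaller sets in homozygous mice, and their counts moved with single libraries. Of 11 heat shock chaperone genes 7 were lower and 0 higher, with a median log2 fold change of -0.51. Hspd1, the mitochondrial chaperone HSP60, had 148, 132 and 149 CPM in homozygous SCFA libraries, against 218, 229 and 201 CPM in homozygous untreated libraries (log2 fold change -0.59, SE 0.13, adjusted p = 0.011), and its adjusted p was 0.0757 without SCFA library 2, 0.0506 without untreated library 1 and 0.0640 without untreated library 2. The number lower was 3 without control untreated library 3, 1 without SCFA library 2, 3 without SCFA library 3, 1 without untreated library 1, 1 without untreated library 2 and 2 without untreated library 3. Of 19 genes of the unfolded protein and amino acid stress responses 8 were lower and 1 higher. Hspa5, the chaperone BiP of the endoplasmic reticulum, had 1738, 1487 and 1658 CPM in homozygous SCFA libraries, against 2667, 2461 and 2581 CPM in homozygous untreated libraries (log2 fold change -0.66, SE 0.13, adjusted p = 0.0049). Ppp1r15a, which restores translation after stress, had 121, 144 and 144 CPM in homozygous SCFA libraries, against 459.9, 440.2 and 583 CPM in homozygous untreated libraries (log2 fold change -1.86, SE 0.19, adjusted p = 1.3e-05) and was lower in control mice as well (log2 -1.74, adjusted p = 0.0003). The number lower was 5 without control SCFA library 2, SCFA library 1 or SCFA library 2, and 3 without SCFA library 3, untreated library 1 or untreated library 3. The higher member was not called without SCFA library 2, SCFA library 3, untreated library 1 or untreated library 2.

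Of 21 genes of G2 and M phase 8 were lower and 0 higher, and 0 were lower without SCFA library 2, SCFA library 3 or untreated library 3. The number was 5 without any 1 of the control SCFA libraries, 4 without untreated library 1 and 2 without untreated library 2. Kif11, a motor of the mitotic spindle, had 200.5, 144 and 161 CPM in homozygous SCFA libraries, against 253, 259 and 274 CPM in homozygous untreated libraries (log2 fold change -0.64, SE 0.14, adjusted p = 0.0091), and its adjusted p was 0.0729 without SCFA library 2, 0.0697 without SCFA library 3 and 0.0585 without untreated library 3. Of 20 S phase genes 5 were lower and 0 higher, and the number was 1 without SCFA library 2, 2 without SCFA library 3, 3 without untreated library 1, 2 without untreated library 2 and 8 without control untreated library 2. Rrm2, a subunit of ribonucleotide reductase, had 289, 246 and 274 CPM in homozygous SCFA libraries, against 399, 394 and 377 CPM in homozygous untreated libraries (log2 fold change -0.53, SE 0.11, adjusted p = 0.0079), and its adjusted p was 0.0624 without SCFA library 2.

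Of 22 cytosolic ribosomal protein genes 1 was lower and 0 higher. With DESeq2 5 were lower, with limma-voom 6 were lower and 3 higher, and with the GC offset 3 were lower and 3 higher. The number lower was 0 without SCFA library 3 or untreated library 2, 2 without control untreated library 1 and 3 without control untreated library 2. Of 12 mitochondrially encoded genes 0 were called by edgeR or by DESeq2 and 0 had an unadjusted p under 0.05 with edgeR. Cd36, a fatty acid transporter, was the member that fell most among the 3 lower of 17 tested fatty acid oxidation and PPAR target genes, with 19.2, 23.4 and 22.9 CPM in homozygous SCFA libraries, against 64.3, 56.6 and 65.9 CPM in homozygous untreated libraries (log2 fold change -1.51, SE 0.21, adjusted p = 0.00026). The other two lower members, Acadl and Hadhb, each lost their call in 11 of the 20 alternatives run. The number lower was 1 with the GC offset, with the replicate block, without SCFA library 2 or 3, without untreated library 2 or 3, and without control SCFA library 2, control SCFA library 3 or control untreated library 3. Of 12 primary granule genes of neutrophil precursors 2 were lower and 0 higher, with a median log2 fold change of 0.02, and 7 of the 12 had a log2 fold change above 0. One of the lower members was Ms4a3, a gene of granulocyte and monocyte progenitors, with 222, 209 and 191 CPM in homozygous SCFA libraries, against 476, 408 and 386 CPM in homozygous untreated libraries (log2 fold change -1.03, SE 0.13, adjusted p = 0.00013). The number lower was 1 without SCFA library 3 or untreated library 1. Of 10 tested genes of a list of stefins and Asprv1, 1 was called. This was Asprv1, a protease of late neutrophils, which was higher with SCFA in homozygous mice (log2 1.12, adjusted p = 0.00058) and lower in control mice (log2 -1.03, adjusted p = 0.0039).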
